A study of Mus musculus with 16 samples.

Results

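The comparison of conditioned taste aversion (CTA) with taste control in YFP+ neurons of the gustatory cortex (GC) is described here across all genes measured. It rests on 8 libraries, 4 after CTA and 4 after taste control, and on every entry of the expression table whose mean over these 8 libraries was at least 1 TPM (transcripts scaled by length and to the same total in each library). This gave 15278 entries with 15127 gene names, of 31469 entries with 31020 names in the whole table. No measured difference entered the choice.

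In CTA, a single pairing is enough for an animal to avoid a taste that was followed by gastric malaise. The GC, the part of the insular cortex that receives taste input, is one of the regions through which it is acquired, and the question of the comparison was which transcripts of its deep projection neurons differ in the hours after training. Neurons that fire strongly switch on immediate early genes within minutes, first transcription factors such as *Fos* and *Egr1* and effectors such as *Arc*, and a slower wave of genes for secreted and synaptic proteins such as *Bdnf* and *Nptx2* follows. The lithium salt used to cause malaise also has direct molecular targets, among them the kinase GSK3 and enzymes that recycle inositol, and an aversive injection raises glucocorticoid hormone, whose receptor is a transcription factor.

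All libraries came from male B6.Cg-Tg(Thy1-YFP)HJrs/J mice, called YFP-H, at an age of 60 to 80 postnatal days, in which the Thy1 promoter drives a yellow fluorescent protein in a subset of projection neurons. In the CTA group, a solution of 0.5% saccharin was offered for 30 min before an intraperitoneal injection of 0.15 M lithium chloride at 2% of body weight. The taste control group had the same access to saccharin and was then injected with saline. No group received lithium without the taste, so that the association and the drug itself cannot be told apart in these libraries. YFP+ neurons were sorted by hand 4 hr after training, and the study calls those of the GC layer 5 pyramidal neurons. A second set of 8 libraries, from YFP+ neurons of the basolateral amygdala (BLA) after the same treatments, is used below only for comparison.

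The libraries were alike in coverage. Between 17982 and 18340 entries were above 0 in each of them, and the 10 most abundant entries took 9.70% to 10.5% of all TPM after CTA and 8.64% to 12.9% in taste controls. Pairs of libraries with the same training correlated with a median Pearson's r of 0.924 over all entries tested, and pairs with different training with 0.926. The first principal component (20.8% of the variance) did not follow training: CTA 1, CTA 2, taste control 1 and taste control 2 had scores from -41.1 to -19.1, and CTA 3, CTA 4, taste control 3 and taste control 4 had scores from 0.845 to 43.5. The score of 0.845 belonged to taste control 4, which lay nearer to taste control 2 (-19.1) than to CTA 4 (28.8). No label tells what the libraries of each set have in common.

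Markers of the sorted population were abundant in every library. The *Thy1* entry had 26938, 30878, 39587 and 30936 TPM in the CTA libraries, against 30617, 34756, 53946 and 29844 TPM in the taste controls. Whether reads of the transgene, which carries the *Thy1* promoter, add to this entry was not tested. *Slc17a7*, the vesicular glutamate transporter of cortical projection neurons, averaged 879 TPM over the 8 libraries. The layer 5 genes *Fezf2* and *Bcl11b*, which specify neurons projecting below the cortex, averaged 148 and 42.6 TPM, and *Etv1* averaged 57.7 TPM. *Lamp5*, listed with layers 2 to 4, averaged 149 TPM. Over the 8 libraries, layer 5 markers summed to 838 to 1033 TPM, those of layers 2 to 4 to 250 to 313 TPM and those of layer 6 to 38.4 to 84.65 TPM. Genes known from the claustrum and the endopiriform nucleus, which adjoin the GC, were also high, with *Nr4a2* at 479 TPM and *Gng2* at 374 TPM. Defining genes of inhibitory neurons were low, *Gad1* with 5.28, 0.21, 8.64 and 14.9 TPM in the CTA libraries, against 7.34, 1.79, 0.14 and 2.71 TPM in the taste controls. In pooled cells of this kind, fewer cells of a type and less RNA per cell cannot be told apart.

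Among the 15278 entries, none differed between CTA and taste control at an adjusted p under 0.05 (0%) in limma's moderated test on log2(TPM + 1) with Benjamini-Hochberg adjustment, and the smallest adjusted p was 0.9996. At an unadjusted p under 0.05, 282 entries were higher (1.85%) and 291 were lower (1.9%) after CTA, 573 in all, and 91 had an unadjusted p under 0.01. The log2 difference was above 0 for 7461 entries and below 0 for 7817, with a median of -0.01. Its median standard error was 0.31, and 0.20 for the 5628 entries that reached 30 TPM on average. With libraries 1 and 2 of each group set against libraries 3 and 4 as a block, a model chosen after the principal components were seen, the unadjusted count was 725 and the adjusted count stayed at 0.

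Among the 5628 entries of at least 30 TPM, 5512 (97.9%) had group means within 1.5-fold of each other. In 48 of them (0.853%) all 4 CTA libraries were above all 4 taste controls, and in 56 (0.995%) all 4 were below. Over all entries tested, the corresponding counts were 155 (1.01%) and 182 (1.19%). The smallest p that an exact permutation test can give with 4 libraries against 4 is 0.0286, from 70 arrangements. The study's own criteria (means at least 2-fold apart, an unpaired p under 0.01 and at least 30 TPM) were met by 1 entry, *Exosc1* (0.0178% of 5628).

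Group means were at least 2-fold apart for 26 entries of at least 30 TPM, 14 higher and 12 lower after CTA. In 22 of these the groups overlapped, 12 carry only a transcript number as a name, and in 15 the highest library was more than 5 times the median of the other 7, which was 0 TPM in 5 of these. The entries uc007urf.1 and uc008fbw.1 had the same values in every library, as did uc007kgm.1 and uc008ork.1. The counts thus hold some values more than once. The phospholipid-binding protein gene *Osbp2* had 1793, 32.98, 45.5 and 37.4 TPM in the CTA libraries, against 47.6, 31.6, 38.8 and 35.7 TPM in the taste controls, so that CTA 1 alone set its mean. *Tmem121*, a membrane protein gene, had 8.99, 4.24, 6.93 and 138 TPM in the CTA libraries, against 10.6, 5.18, 2228 and 13.3 TPM in the taste controls. *Dync1li1*, a light intermediate chain of the dynein motor, had 298, 239.5, 194 and 293 TPM in the CTA libraries, against 295, 295, 1383 and 268 TPM in the taste controls. Taste control 3 was the highest library in both of the last cases. *Icam1*, an adhesion molecule, varied widely within both groups, with 88.3, 89.6, 743 and 210.3 TPM in the CTA libraries, against 483, 1078, 65.4 and 1287 TPM in the taste controls. These genes were picked after their values were seen. A fold between means could thus come from a single library, and the 24 genes named by rule below are ones whose groups do not overlap.

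**Figure D1:**
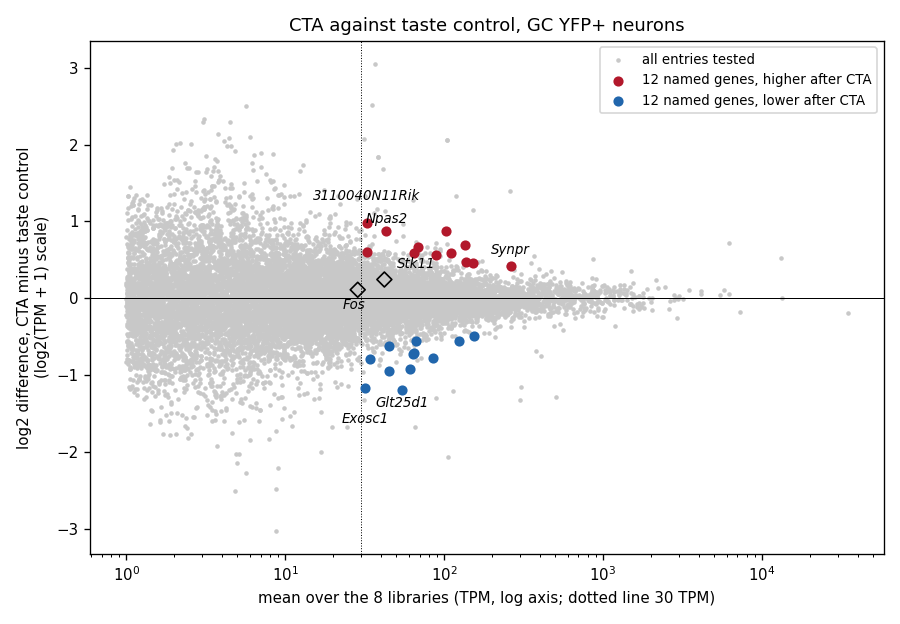
Each point is 1 of the 15278 entries tested. The x axis is the mean over the 8 libraries in TPM (log axis, dotted line at 30 TPM) and the y axis the log2 difference, CTA minus taste control, on the log2(TPM + 1) scale. Filled points are the 12 higher (red) and 12 lower (blue) genes named by rule, which lie inside the spread of other entries of their level, and open diamonds are *Fos* (0.11) and *Stk11* (0.24).

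*Exosc1* encodes a subunit of the cap of the RNA exosome, the complex that degrades and trims RNA from its 3′ end. It lies on chromosome 19 of GRCm38 (41922292 to 41933423, minus strand), and no other annotated gene overlaps it. Its levels were 24.5, 18.1, 13.01 and 21.1 TPM in the CTA libraries, against 60.97, 33.2, 38.1 and 45.9 TPM in the taste controls. Every CTA library was below every taste control, and the gap between the highest CTA library and the lowest taste control was smaller than the range within the taste controls. The means were 19.2 ± 4.88 TPM after CTA and 44.6 ± 12.1 TPM in taste controls (mean ± SD over 4 libraries, as in all such pairs below, n = 4 each), a ratio of 0.431. The log2 difference was -1.17 ± 0.26 (SE), with a 95% interval of -1.73 to -0.61. The exact permutation p was 0.0286, the smallest possible, as for every entry whose groups do not overlap. The criteria chose *Exosc1* on these same libraries, so that its p and interval are a description and not a test. Without taste control 1, its mean over the libraries was 27.7 TPM, and without taste control 4 it was 29.9 TPM, both under the 30 TPM asked for. Of the 8 libraries, taste control 2 was the only one that could be left out with *Exosc1* still meeting the criteria, since its unpaired p was 0.013 to 0.0246 without any of the CTA libraries, taste control 3 or taste control 4. In the BLA, *Exosc1* averaged 33.2 ± 17.5 TPM after CTA and 25.8 ± 15.7 TPM in taste controls, and these means differed by less than either SD.

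The bases before the start of *Exosc1* are shown because it is the 1 gene that met the criteria. They are the 141 bases at chr19:41933424-41933564 (RefSeq, GRCm38.p6, minus strand, 5′ to 3′), outside the gene as GENCODE draws it. For comparison the 250 bases before *Fos* follow (chr12:85473640-85473889, plus strand). Capitals mark matches to TGACGT, the core of the cAMP response element bound by CREB, on either strand.
Exosc1: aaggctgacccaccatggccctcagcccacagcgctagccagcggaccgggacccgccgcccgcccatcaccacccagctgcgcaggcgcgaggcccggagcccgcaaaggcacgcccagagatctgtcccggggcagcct
Fos: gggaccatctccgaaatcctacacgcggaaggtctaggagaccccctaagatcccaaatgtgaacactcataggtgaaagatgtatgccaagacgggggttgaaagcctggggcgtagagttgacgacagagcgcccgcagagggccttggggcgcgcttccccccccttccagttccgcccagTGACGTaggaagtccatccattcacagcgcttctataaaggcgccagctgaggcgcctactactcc
The core was found once in the *Fos* window, beginning 66 bases before the start, and not in the 141 bases of *Exosc1*. That stretch is shorter than the windows of 250 bases, and bases inside the gene were not searched. It was found in 6.47% of 32851 windows of 250 bases before annotated starts. Of 18 immediate early transcription factors with a window, 8 held it in at least 1 window, among them *Egr4*, *Nr4a3*, *Npas4* and *Btg2*. A match is a description of the letters only.

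Of 22 tested genes for subunits and cofactors of the exosome, *Exosc1* included, 8 were higher and 14 lower after CTA, with a median log2 difference of -0.09 (range -1.17 to 0.37), against -0.01 over all entries. *Exosc1* was the only one with an unadjusted p under 0.05 or with groups that did not overlap. Over all entries, 1.9% were lower at that p and 1.19% were lower without overlap. *Exosc7*, a ring subunit, had 14.4, 31.4, 19.98 and 21.2 TPM in the CTA libraries, against 42.6, 44.4, 16.9 and 30.8 TPM in the taste controls. Its CTA libraries lay within the range of the taste controls, apart from CTA 1. *Exosc4*, another ring subunit, averaged 38.6 ± 4.02 TPM after CTA and 31.3 ± 3.92 TPM in taste controls, in the other direction. *Zcchc8*, a scaffold of the nuclear adaptor complex that brings RNA to the exosome, averaged 7.43 ± 2.16 TPM after CTA and 10.1 ± 2.85 TPM in taste controls. The catalytic subunits *Dis3* and *Exosc10* had mean levels of 8.43 TPM in CTA against 9.48 TPM in taste control libraries and 26.1 TPM in CTA against 26.6 TPM in taste control libraries. Leaving out taste control 3 gave a list median of -0.16 and leaving out taste control 4 gave 0.02, so that its sign depended on 1 library.

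**Figure D2:**
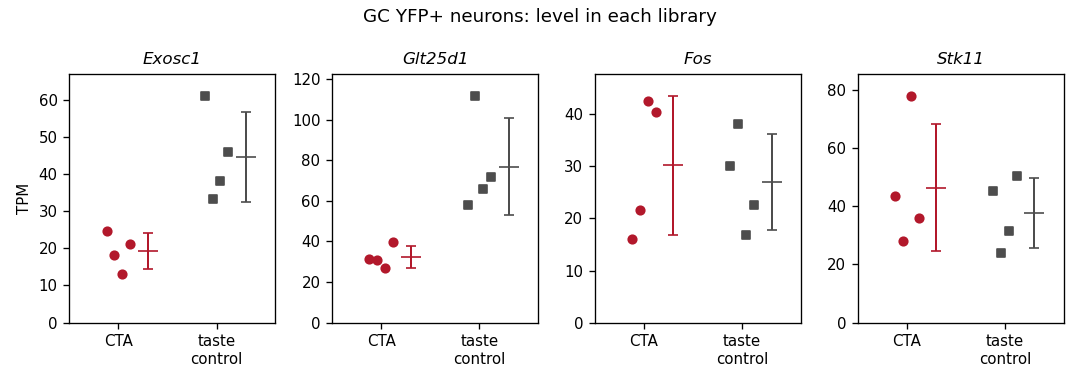
Level in TPM (y axis, from 0) of *Exosc1*, *Glt25d1*, *Fos* and *Stk11* in each library of GC YFP+ neurons. Red circles are CTA libraries and grey squares taste controls, with the mean and SD (n = 4) beside them. The groups do not overlap for *Exosc1* and *Glt25d1*, and they overlap for *Fos* and *Stk11*.

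*Fos*, the transcription factor read most often as a sign of recent activity, had 16.1, 21.7, 42.7 and 40.4 TPM in the CTA libraries, against 30.2, 38.1, 16.9 and 22.7 TPM in the taste controls. CTA 3 and CTA 4 were the 2 highest libraries, and CTA 1 was the lowest of all 8. The means were 30.2 ± 13.3 TPM after CTA and 26.95 ± 9.22 TPM in taste controls (SD, n = 4 each), with a log2 difference of 0.11 (95% interval -0.64 to 0.86, exact permutation p = 0.686, two-sided). The interval thus spans from more than 1.5-fold lower to more than 1.5-fold higher. *Stk11*, which encodes the kinase LKB1 that activates AMP-activated protein kinase and its relatives, had 43.5, 28.1, 77.8 and 36.1 TPM in the CTA libraries, against 45.1, 23.98, 31.6 and 50.2 TPM in the taste controls. CTA 3 was the highest library, and the other 3 CTA libraries lay within the range of the taste controls. Its log2 difference was 0.24 (95% interval -0.45 to 0.93, exact permutation p = 0.6, two-sided). *Stk11* (chromosome 10, 80115803 to 80130682) shares exonic bases with *Dos* on the other strand, whose level averaged 169.8 TPM in CTA against 165 TPM in taste control libraries. Without CTA 3, the log2 difference was -0.09 for *Fos* and -0.04 for *Stk11*, and for *Fos* it was also below 0 without CTA 4 (-0.06) or taste control 3 (-0.08).

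Most immediate early transcription factors were detected 4 hr after training, and none of the 19 tested passed the test. Of these, 14 were higher and 5 lower after CTA, with a median log2 difference of 0.06, and none reached an unadjusted p of 0.05. Without CTA 3, the median was -0.09, without CTA 2 it was -0.01, and without CTA 1 it was 0.23. The most abundant, the nuclear receptor *Nr4a2*, had 484, 489, 588 and 479 TPM in the CTA libraries, against 416, 434, 437 and 504 TPM in the taste controls. CTA 3 stood above the rest, and taste control 4 was above the other 3 CTA libraries. *Egr1*, a zinc finger factor, averaged 373 ± 95.8 TPM after CTA and 359 ± 53.04 TPM in taste controls, and *Junb* averaged 194 ± 29.7 TPM after CTA and 194 ± 26.5 TPM in taste controls. *Egr4* had 24.7, 26.01, 67.7 and 64.7 TPM in the CTA libraries, against 27.9, 17.04, 30.97 and 47.4 TPM in the taste controls, with CTA 3 and CTA 4 high and CTA 1 and CTA 2 within the range of the taste controls. *Fosb* averaged 17.5 ± 4.87 TPM after CTA and 13.2 ± 1.38 TPM in taste controls, and *Ier2*, a short-lived nuclear protein, 7.01 ± 4.78 TPM after CTA and 3.998 ± 2.62 TPM in taste controls. The remaining members ranged from *Egr3* (138 TPM over the 8 libraries), *Ier5* (72.97), *Klf6* (58.6), *Nr4a1* (45.9), *Jun* (40.02), *Npas4* (34.7), *Nr4a3* (32.3), *Fosl2* (26.1) and *Jund* (25.8) to *Btg2* (11.5), *Egr2* (5.501) and *Atf3* (1.101). *Fosl1*, *Klf4* and *Maff* averaged under 1 TPM and were not tested.

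Of 15 immediate early effectors, 10 were higher and 5 lower (median log2 difference 0.10), and 1 had an unadjusted p under 0.05, where 1.85% of all entries were higher at that level. This was *Dusp5*, a phosphatase that switches off ERK in the nucleus, which had 11.4, 2.23, 10.4 and 1.89 TPM in the CTA libraries, against 2.5, 0.08, 0.2 and 1.01 TPM in the taste controls. CTA 1 and CTA 3 were above every other library, and CTA 2 and CTA 4 were below taste control 1. Its log2 difference was 1.79 ± 0.60 (SE, 95% interval 0.49 to 3.10) at a low level, and its exons share bases with an antisense transcript. *Arc*, a regulator of AMPA receptor uptake at synapses, had 27.1, 25.2, 165 and 100.1 TPM in the CTA libraries, against 43.6, 34.5, 62.2 and 75.2 TPM in the taste controls. CTA 3 was highest and CTA 2 lowest, so that the CTA libraries spanned more than the whole range of the taste controls. *Homer1*, a scaffold of the postsynaptic density, averaged 279.8 ± 30.3 TPM after CTA and 284 ± 63.5 TPM in taste controls. *Gadd45g*, a stress-response gene, averaged 21.4 ± 5.98 TPM after CTA and 30.3 ± 8.07 TPM in taste controls, the polo-like kinase *Plk3* 20.8 ± 6.43 TPM after CTA and 14.7 ± 5.37 TPM in taste controls and the pseudokinase *Trib1* 26.9 ± 3.01 TPM after CTA and 20.5 ± 10.1 TPM in taste controls.

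The slower wave showed no common direction. Of 22 delayed activity-regulated genes tested, 10 were higher and 12 lower, with a median log2 difference of -0.06 and no unadjusted p under 0.05. *Bdnf*, the growth factor of synapses, had 63.3, 95.3, 92.4 and 60.3 TPM in the CTA libraries, against 98.6, 92.1, 70.7 and 71.1 TPM in the taste controls. CTA 1 and CTA 4 were the 2 lowest libraries, and CTA 2 and CTA 3 lay among the taste controls. *Nptx2*, a secreted pentraxin that clusters AMPA receptors, averaged 37.1 ± 6.61 TPM after CTA and 29.4 ± 6.68 TPM in taste controls, and its relative *Nptx1* averaged 114 ± 13.4 TPM after CTA and 98.9 ± 18.1 TPM in taste controls. The G protein regulators *Rgs2* and *Rgs4* averaged 91.6 ± 13.2 TPM after CTA and 114 ± 19.5 TPM in taste controls, and 233 ± 36.3 TPM after CTA and 290.2 ± 66.4 TPM in taste controls. *Ptgs2*, the inducible cyclooxygenase, averaged 12.9 ± 3.85 TPM after CTA and 8.54 ± 4.67 TPM in taste controls, and the lamin gene *Lmna* 28.8 ± 8.02 TPM after CTA and 36.6 ± 5.82 TPM in taste controls. All of these groups overlapped.

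Among 10 CREB factors and coactivators, 6 were higher and 4 lower (median 0.01). *Crtc1*, a coactivator that enters the nucleus after synaptic activity, had 30.2, 28.5, 28.5 and 33.8 TPM in the CTA libraries, against 40.5, 44.8, 37.8 and 38.9 TPM in the taste controls. Every CTA library was below every taste control, as in 1.19% of all entries (log2 difference -0.41, 95% interval -0.80 to -0.02). *Creb1* itself averaged 17.9 ± 1.15 TPM after CTA and 18.4 ± 4.73 TPM in taste controls. *Atf1* averaged 17.6 ± 2.51 TPM after CTA and 26.3 ± 17.3 TPM in taste controls, where taste control 4 was highest. For STK11, its partners and the AMP-related kinases, 15 of 23 tested genes were higher and 8 lower (median 0.02), with none at an unadjusted p under 0.05 and none with separate groups. The smallest p there belonged to *Stk11ip*, a protein that binds STK11, with 17.4 ± 5.26 TPM after CTA and 11.5 ± 3.36 TPM in taste controls. *Prkab2*, a regulatory subunit of AMP-activated protein kinase, averaged 37.3 ± 5.91 TPM after CTA and 30.4 ± 4.98 TPM in taste controls, *Mark1* 34.2 ± 5.34 TPM after CTA and 40.5 ± 5.38 TPM in taste controls and *Mark3* 62.5 ± 13.4 TPM after CTA and 69.3 ± 4.61 TPM in taste controls.

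The 12 genes of at least 30 TPM that were higher in every CTA library and had the smallest p are the next group, and their values chose them. *Npas2* had the smallest p and is described with the clock genes. *Wipf3*, which encodes a protein of the WASP-interacting family that acts on actin, had 73.9, 75.1, 72.6 and 92.5 TPM in the CTA libraries, against 50.4, 49.5, 53.2 and 52.9 TPM in the taste controls. *Fam96b* (now *Ciao2b*), a member of the machinery that places iron-sulfur clusters in cytosolic proteins, had 111, 114, 164 and 139.7 TPM in the CTA libraries, against 43.6, 70.8, 100.3 and 79.2 TPM in the taste controls. *Vps52*, a subunit of the GARP tether that returns vesicles to the Golgi, had 155, 124, 219.99 and 170.1 TPM in the CTA libraries, against 90.2, 85.7, 117 and 116 TPM in the taste controls. In *Vps52*, the lowest CTA library exceeded the highest taste control by less than the range within either group.

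*Synpr*, which encodes synaptoporin, a synaptic vesicle protein, had 315, 292, 313 and 282 TPM in the CTA libraries, against 216, 194, 239 and 252 TPM in the taste controls. The CTA libraries lay close together, and the log2 difference was 0.42 ± 0.13 (SE, 95% interval 0.15 to 0.70). *Cpne4*, a calcium-dependent membrane-binding protein gene, had 158, 138, 107 and 128 TPM in the CTA libraries, against 75.8, 100.3, 72.4 and 104 TPM in the taste controls, and *Ngef*, an exchange factor for small GTPases that acts under ephrin receptors, had 187, 139, 195 and 186 TPM in the CTA libraries, against 126, 122, 127 and 135 TPM in the taste controls. Both were higher in all 4 CTA libraries, *Ngef* with CTA 2 close to the taste controls. *Alg2*, a mannosyltransferase of N-glycan synthesis, had 172, 163, 170.1 and 133 TPM in the CTA libraries, against 122, 92.7, 121 and 127 TPM in the taste controls.

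The 4 others were *0610031J06Rik* (now *Glmp*, a lysosomal membrane protein), with mean levels of 83.5 ± 10.3 TPM after CTA and 52.8 ± 9.98 TPM in taste controls, *0610007P14Rik* (now *Erg28*) with 107 ± 18.6 TPM after CTA and 71.3 ± 8.702 TPM in taste controls, *Fam78b* with 39.3 ± 3.75 TPM after CTA and 25.7 ± 3.07 TPM in taste controls and *3110040N11Rik* with 43.2 ± 14.4 TPM after CTA and 21.9 ± 8.67 TPM in taste controls. In *3110040N11Rik*, CTA 1 stood apart from the other CTA libraries at 64.8 TPM. Over the 12 genes, log2 differences lay between 0.42 (*Synpr*) and 0.98 (*3110040N11Rik*).

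The 12 lower genes were chosen in the same way. *Glt25d1* (now *Colgalt1*), a galactosyltransferase of collagen, had the smallest p of all entries of at least 30 TPM, with 31.4, 30.8, 27.1 and 39.9 TPM in the CTA libraries, against 57.9, 112, 65.6 and 71.9 TPM in the taste controls. The CTA libraries lay within a narrow range, and all taste controls were above it. The means were 32.3 ± 5.401 TPM after CTA and 76.8 ± 23.9 TPM in taste controls, with a log2 difference of -1.19 ± 0.23 (SE, 95% interval -1.68 to -0.70). On chromosome 8 its exons share bases with *Unc13a*, a priming factor of synaptic vesicles on the other strand, whose level averaged 133 ± 18. TPM after CTA and 137 ± 20.1 TPM in taste controls. The library kit does not mark strand, so that reads of these exons cannot be told apart. In the BLA *Glt25d1* averaged 50.4 ± 15.7 TPM after CTA and 23.96 ± 15. TPM in taste controls, the opposite order.

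*Cdk9*, the kinase that releases paused RNA polymerase II, had 37.8, 43.3, 34.3 and 44.01 TPM in the CTA libraries, against 46.8, 102.4, 127 and 53.4 TPM in the taste controls, with taste control 2 and taste control 3 far above the other 2. Its ratio of means was 0.483, yet taste control 1 was within 3 TPM of CTA 4. *Dnajc19*, part of the motor that imports proteins into mitochondria, had 32.3, 49.5, 51.2 and 60.6 TPM in the CTA libraries, against 89.7, 85.2, 60.9 and 81.9 TPM in the taste controls. *Ssr2*, a subunit of the translocon-associated complex of the endoplasmic reticulum, had 95.3, 88.3, 103 and 109 TPM in the CTA libraries, against 166, 112, 133 and 184 TPM in the taste controls. *Pdzd11*, a small PDZ domain protein gene, had 77.6, 63.7, 40.5 and 70.7 TPM in the CTA libraries, against 92.2, 121, 116 and 98.3 TPM in the taste controls. In the last 3 of these genes the closest libraries of the groups differed by less than the range within either group.

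The others were *2310009A05Rik* (now *Pigbos1*, a mitochondrial microprotein) with 30.3 ± 7.08 TPM after CTA and 59.8 ± 18.2 TPM in taste controls, *Cdadc1*, a cytidine deaminase gene, with 48.8 ± 10.9 TPM after CTA and 80.2 ± 13.3 TPM in taste controls, *B230217C12Rik* with 128 ± 18.1 TPM after CTA and 179.5 ± 14.5 TPM in taste controls, *Lrrc45*, a centrosomal linker gene, with 24.5 ± 5.55 TPM after CTA and 43.3 ± 10.7 TPM in taste controls, *Pradc1* with 34.6 ± 2.72 TPM after CTA and 54.7 ± 11.2 TPM in taste controls and *Sdr39u1* with 53.05 ± 6.87 TPM after CTA and 79.1 ± 13.7 TPM in taste controls. Over the 12 lower genes, log2 differences lay between -1.19 and -0.49. Leaving out any 1 library left the direction of all 24 genes as it was, since their groups do not overlap.

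Among 18 circadian clock genes, 13 were higher after CTA and 5 were lower (median log2 difference 0.07), and without taste control 3 the median was -0.03. An unadjusted p under 0.05 was reached by 3 that were higher and 1 that was lower, against 1.85% and 1.9% of all entries, and the groups did not overlap for 2 that were higher, against 1.01% of all entries. The clock is a loop in which ARNTL (BMAL1) with CLOCK or NPAS2 activates the *Per*, *Cry* and *Nr1d* genes, whose products in turn repress it. *Npas2*, the partner of ARNTL that is prominent in forebrain, had 52.5, 48.3, 71.3 and 53.1 TPM in the CTA libraries, against 28.3, 25.4, 28.6 and 38.9 TPM in the taste controls. The lowest CTA library was 9 TPM above the highest taste control, and the log2 difference was 0.87 ± 0.21 (SE, 95% interval 0.43 to 1.32). *Arntl* had 36.5, 29.5, 40.6 and 34.2 TPM in the CTA libraries, against 26.1, 19.5, 19.96 and 28.7 TPM in the taste controls, with less than 1 TPM between the closest libraries and a log2 difference of 0.57 ± 0.22 (SE, 95% interval 0.10 to 1.04). An antisense transcript shares exonic bases with *Arntl*. *Clock* averaged 60.6 ± 15.4 TPM after CTA and 46.8 ± 8.97 TPM in taste controls. Here CTA 2 was the highest library and taste control 3 the lowest, and CTA 1 and CTA 3 were below 3 of the 4 taste controls.

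Of the repressors, *Bhlhe40* (DEC1) had 329.9, 347, 268 and 283 TPM in the CTA libraries, against 253, 265, 273 and 170.4 TPM in the taste controls, and CTA 3 was below taste control 3. Its paralog *Bhlhe41* (DEC2) went the other way at a low level, with 4.38, 9.72, 6.04 and 1.04 TPM in the CTA libraries, against 10.7, 10.6, 13.4 and 7.72 TPM in the taste controls. CTA 2 was above taste control 4, and an antisense transcript overlaps this gene too. *Nr1d1* (REV-ERB alpha), a repressor of *Arntl* and *Npas2*, averaged 111 ± 21.6 TPM after CTA and 140.4 ± 16.1 TPM in taste controls, and *Rorb*, an activator at the same elements and a marker of layer 4, 21.02 ± 2.33 TPM after CTA and 30.3 ± 8.36 TPM in taste controls. The *Per* and *Cry* genes of the loop were close to level. *Per1* averaged 36.1 TPM in CTA against 31.7 TPM in taste control libraries, and *Per2* 19.9 TPM against 19.1 TPM. *Per3* averaged 25.6 TPM in CTA against 24.5 TPM in taste control libraries. *Cry1* averaged 5.31 TPM in CTA against 6.45 TPM in taste control libraries, and *Cry2* 96.96 TPM against 87.7 TPM. The output genes were close to level too, *Dbp* at 60.1 TPM in CTA against 53.5 TPM in taste control libraries and *Tef* at 109 TPM against 103 TPM. Both groups were collected 4 hr after training, and the clock time of each library is not given in the sources used here.

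*Bhlhe41* is shown as an example of the site that ARNTL with NPAS2 or CLOCK is known to bind, the E-box CACGTG. Its 112 bases at chr6:145865559-145865670 (RefSeq, GRCm38.p6, minus strand, 5′ to 3′) lie before the gene, with the E-box in capitals.
Bhlhe41: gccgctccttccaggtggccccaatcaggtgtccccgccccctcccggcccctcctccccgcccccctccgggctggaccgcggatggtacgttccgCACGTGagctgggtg
The E-box begins 15 bases before the end of this stretch. It is palindromic, so that both strands read alike, and 6.02% of the 32851 windows of 250 bases held it. Of 17 clock genes with a window, 5 held it (*Per1*, *Cry1*, *Tef*, *Bhlhe41* and *Ciart*). Of these only *Bhlhe41* was past the unadjusted threshold, and it was lower.

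Of 17 glucocorticoid-responsive genes and receptors, 10 were higher and 7 lower after CTA, with a median log2 difference of 0.02. Groups did not overlap for 2 that were higher, against 1.01% of all entries, and for 1 that was lower, against 1.19%. *Fkbp5*, a cochaperone that is among the strongest targets of the glucocorticoid receptor, had 13.7, 16.1, 36.7 and 18.8 TPM in the CTA libraries, against 8.75, 8.76, 6.2 and 13.3 TPM in the taste controls. CTA 3 was highest, and CTA 1 exceeded taste control 4 by less than 1 TPM. The log2 difference was 1.07 ± 0.34 (SE, 95% interval 0.32 to 1.81). *Errfi1*, a feedback inhibitor of the EGF receptor, had 34.9, 43.6, 29.9 and 34.3 TPM in the CTA libraries, against 24.3, 18.6, 23.7 and 24.1 TPM in the taste controls, so that the lowest CTA library was 29.9 TPM and the highest taste control 24.3 TPM. *Sult1a1*, a sulfotransferase, was near the floor, with 1.51, 0.88, 3.74 and 1.15 TPM in the CTA libraries, against 7.72, 5.88, 4.14 and 4.5 TPM in the taste controls. The metallothionein *Mt2* had 78.9, 123, 186 and 116 TPM in the CTA libraries, against 61.9, 154, 55.9 and 53.6 TPM in the taste controls, and taste control 2 stood far above the other taste controls. *Nr3c1*, the glucocorticoid receptor itself, averaged 39.9 ± 8.14 TPM after CTA and 52.6 ± 5.01 TPM in taste controls, and its groups overlapped by the pair CTA 1 and taste control 2. Other classical targets were level, *Sgk1* at 32.2 TPM in CTA against 31.5 TPM in taste control libraries, *Tsc22d3* at 17.4 TPM in CTA against 19.9 TPM in taste control libraries and *Klf9* at 136 TPM in CTA against 120.1 TPM in taste control libraries.

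**Figure D3:**
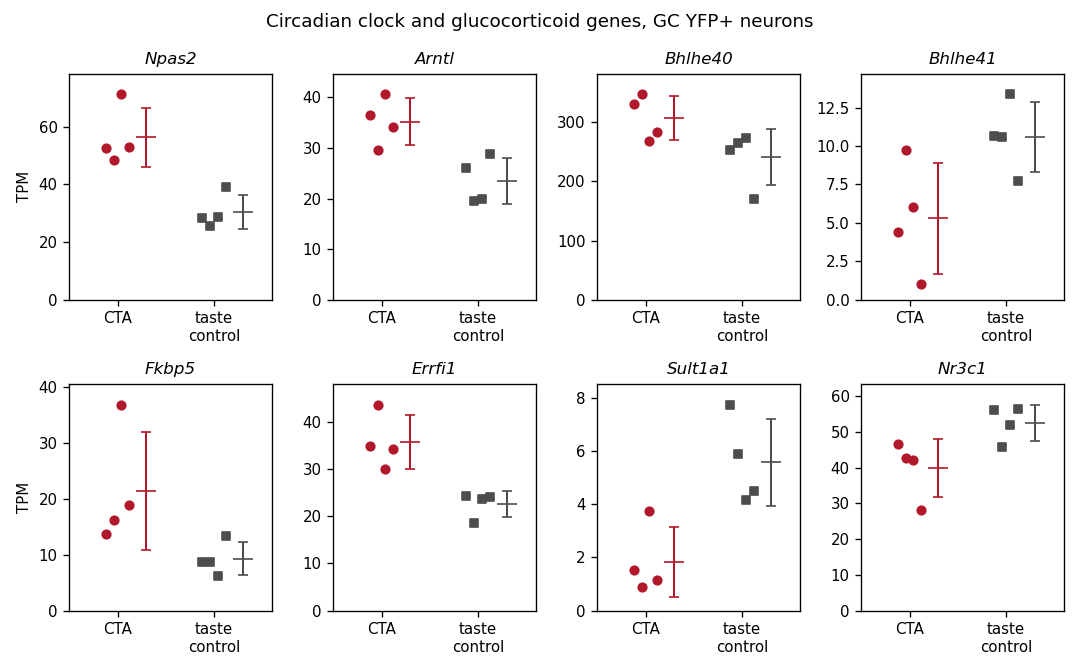
Level in TPM (y axis, from 0) of 4 clock genes (upper row) and 4 glucocorticoid genes (lower row) in each library of GC YFP+ neurons. Red circles are CTA libraries and grey squares taste controls, with the mean and SD (n = 4) beside them. The groups are separate for *Npas2*, *Arntl*, *Fkbp5*, *Errfi1* and *Sult1a1* and overlap for *Bhlhe40*, *Bhlhe41* and *Nr3c1*.

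No transcript of a direct target of lithium passed the test, and the activity of these proteins was not measured. Of 14 tested genes for GSK3 and inositol enzymes, 6 were higher and 8 lower (median -0.03), and no unadjusted p was under 0.05. *Gsk3b* averaged 171 ± 29.8 TPM after CTA and 169 ± 21.3 TPM in taste controls, and *Gsk3a* 109 ± 48.9 TPM after CTA and 102.1 ± 5.36 TPM in taste controls. *Bpnt1*, a lithium-sensitive phosphatase of nucleotides, had 50.6, 53.5, 52.6 and 31.97 TPM in the CTA libraries, against 43.5, 26.7, 30.1 and 32.97 TPM in the taste controls, and CTA 4 was below 2 of the taste controls. The inositol monophosphatases *Impa1* and *Impa2* averaged 45.6 ± 9.902 TPM after CTA and 52.7 ± 7.499 TPM in taste controls, and 1.81 ± 1.58 TPM after CTA and 3.71 ± 1.59 TPM in taste controls. *Slc5a3*, the inositol transporter, averaged 16.2 ± 2.701 TPM after CTA and 19.9 ± 5.19 TPM in taste controls. Of 7 tested targets of beta-catenin, which GSK3 holds in check, 2 were higher and 5 lower. *Axin2* was level at 16.1 TPM in CTA against 16.9 TPM in taste control libraries. *Lgr5*, an R-spondin receptor, had 7.47, 7.35, 2.64 and 4.06 TPM in the CTA libraries, against 8.58, 10.4, 10.01 and 13.7 TPM in the taste controls, and *Nkd1* averaged 0.902 ± 0.676 TPM after CTA and 2.02 ± 1.46 TPM in taste controls. All CTA libraries of *Lgr5* were below all taste controls, as in 1.19% of all entries, at a low level (log2 difference -0.94, 95% interval -1.72 to -0.16).

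Receptors and channels were described by family. Of 20 ionotropic glutamate receptor subunits and partners, 12 were higher and 8 lower (median 0.02). *Shisa6*, an auxiliary AMPA receptor protein, had 39.3, 33.1, 54.8 and 31.2 TPM in the CTA libraries, against 26.9, 20.8, 23.3 and 36.6 TPM in the taste controls, and taste control 4 was above CTA 2 and CTA 4. *Grin3a*, the NMDA receptor subunit of low calcium permeability, averaged 26.3 ± 4.15 TPM after CTA and 18.8 ± 6.73 TPM in taste controls, and *Cacng8*, an AMPA receptor partner, 17.97 ± 1.61 TPM after CTA and 25.2 ± 8.198 TPM in taste controls. Of 12 GABA-A receptor subunits, 4 were higher and 8 lower (median -0.04). *Gabrd*, the delta subunit of receptors outside the synapse that carry tonic inhibition, had 38.1, 39.6, 49.95 and 40.3 TPM in the CTA libraries, against 63.6, 59.8, 54.4 and 51.8 TPM in the taste controls. Every CTA library was below every taste control, as in 1.19% of all entries. Between CTA 3 and taste control 4 lay 2 TPM (log2 difference -0.45 ± 0.17 SE, 95% interval -0.82 to -0.07). The subunit gene *Gabra5* was nearly level, at 177 TPM in CTA against 167 TPM in taste control libraries.

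Among 33 receptors for acetylcholine, monoamines and peptides, 17 were higher and 16 lower (median 0.02), and 2 higher and 3 lower ones had an unadjusted p under 0.05, against 1.85% and 1.9% of all entries. *Htr1f*, a serotonin receptor of deep cortical layers, had 15.9, 15.5, 13.2 and 8.93 TPM in the CTA libraries, against 30.03, 26.3, 21.1 and 20.03 TPM in the taste controls. It was lower without overlap, as were 1.19% of all entries, and the log2 difference was -0.83 ± 0.26 (SE, 95% interval -1.40 to -0.26). *Sstr2*, a somatostatin receptor, had 93.2, 100.5, 139 and 105 TPM in the CTA libraries, against 94.3, 47.2, 53.5 and 77.2 TPM in the taste controls, and CTA 1 was just below taste control 1. *Cckbr*, the cholecystokinin B receptor, had 54.4, 64.4, 73.1 and 60.9 TPM in the CTA libraries, against 78.8, 115, 73.1 and 86.5 TPM in the taste controls, and CTA 3 and taste control 3 were equal within 0.1 TPM. *Adra2c*, an adrenergic receptor, averaged 9.73 ± 2.203 TPM after CTA and 5.33 ± 2.33 TPM in taste controls, and *Hrh2*, a histamine receptor, 5.26 ± 1.45 TPM after CTA and 10.4 ± 3.91 TPM in taste controls.

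The 39 genes for potassium and HCN channels divided into 21 higher and 18 lower (median 0.01), with none at an unadjusted p under 0.05. *Kcnab3*, a beta subunit, had 74.98, 19.3, 29.7 and 44.01 TPM in the CTA libraries, against 73.1, 69.9, 67.2 and 43. TPM in the taste controls. CTA 1 was the highest library, CTA 4 lay among the taste controls, and the other 2 CTA libraries were below them. *Hcn3*, a pacemaker channel, had 11.3, 8.88, 23.4 and 29.1 TPM in the CTA libraries, against 8.85, 12.8, 11.9 and 4.59 TPM in the taste controls, with CTA 3 and CTA 4 high. *Kcnn3*, a calcium-activated channel, averaged 6.72 ± 0.605 TPM after CTA and 4.44 ± 2.15 TPM in taste controls. Of 25 sodium and calcium channel entries, 7 were higher and 18 lower (median -0.05). *Scn4b*, a sodium channel beta subunit, had 30.2, 18.7, 26.9 and 26.3 TPM in the CTA libraries, against 39.6, 45.2, 49.8 and 28.03 TPM in the taste controls, and 1 pair of libraries, CTA 1 and taste control 4, crossed (95% interval -1.16 to -0.12). *Cacna1a*, the P/Q-type calcium channel, averaged 45.5 ± 13.05 TPM after CTA and 62.8 ± 19.6 TPM in taste controls, and *Scn1a* 87.8 ± 22.9 TPM after CTA and 109 ± 19.4 TPM in taste controls. *Cacnb2*, on the more abundant of its 2 entries, averaged 62.5 ± 13.6 TPM after CTA and 46.7 ± 22.3 TPM in taste controls. Of 30 entries of the release machinery, 14 were higher and 16 lower (median -0.02). *Unc13b*, a priming factor, had 27.4, 24.9, 28.2 and 30.4 TPM in the CTA libraries, against 44.5, 35.6, 32.6 and 38.8 TPM in the taste controls. It was lower without overlap, as were 1.19% of all entries (log2 difference -0.43). *Syt2* and *Vamp1*, both typical of fast-spiking neurons, averaged 4.97 ± 4.54 TPM after CTA and 12.1 ± 8.24 TPM in taste controls, and 31.3 ± 5.87 TPM after CTA and 43.1 ± 13.8 TPM in taste controls.

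The lists for mitochondria, ribosome and proteasome had narrow ranges. All 76 tested entries for oxidative phosphorylation were at 30 TPM or more, and 31 were higher and 45 lower, with log2 differences from -0.37 to 0.35 and a median of -0.04. *Ndufb5*, a subunit of complex I, had 289.8, 333, 309 and 308 TPM in the CTA libraries, against 375, 389, 343 and 379 TPM in the taste controls. It was lower without overlap, as were 1.19% of all entries. *Ndufs7*, another subunit of complex I, averaged 282 ± 67.03 TPM after CTA and 358 ± 33.6 TPM in taste controls, and *Atp5g2*, of the ATP synthase, 521 ± 72.4 TPM after CTA and 414 ± 96.1 TPM in taste controls. Of 76 entries for cytosolic ribosomal proteins, 46 were higher and 30 lower (range -0.36 to 0.34, median 0.02). *Rpl35a* averaged 609.7 ± 66.3 TPM after CTA and 726 ± 76.4 TPM in taste controls, and *Rpl26* 623 ± 138 TPM after CTA and 487 ± 77.2 TPM in taste controls, in opposite directions. Of 31 proteasome subunits, 13 were higher and 18 lower (range -0.27 to 0.33), *Psmb5* with 376 ± 50.98 TPM after CTA and 314 ± 31.6 TPM in taste controls. Stress and sterol lists spread more widely. Of 18 heat shock genes, 6 were higher and 12 lower (range -0.41 to 0.48, median -0.08), and their regulator *Hsf1* averaged 35.04 ± 5.28 TPM after CTA and 46.99 ± 8.196 TPM in taste controls. Of 23 genes of the unfolded protein response, 9 were higher and 14 lower (range -0.90 to 0.83, median -0.08), where *Sdf2l1* averaged 15.97 ± 12.5 TPM after CTA and 26.6 ± 10.3 TPM in taste controls and the sensor *Ern1* averaged 4.29 ± 2.63 TPM after CTA and 1.86 ± 1.02 TPM in taste controls. Of 25 genes of cholesterol synthesis, 18 were higher and 7 lower (range -0.69 to 0.58, median 0.06), where *Insig1* averaged 42.4 ± 8.83 TPM after CTA and 30.03 ± 9.56 TPM in taste controls, and *Dhcr7* averaged 7.29 ± 2.29 TPM after CTA and 12.5 ± 4.76 TPM in taste controls. None of these lists had a member at an adjusted p under 0.05 in limma.

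**Figure D4:**
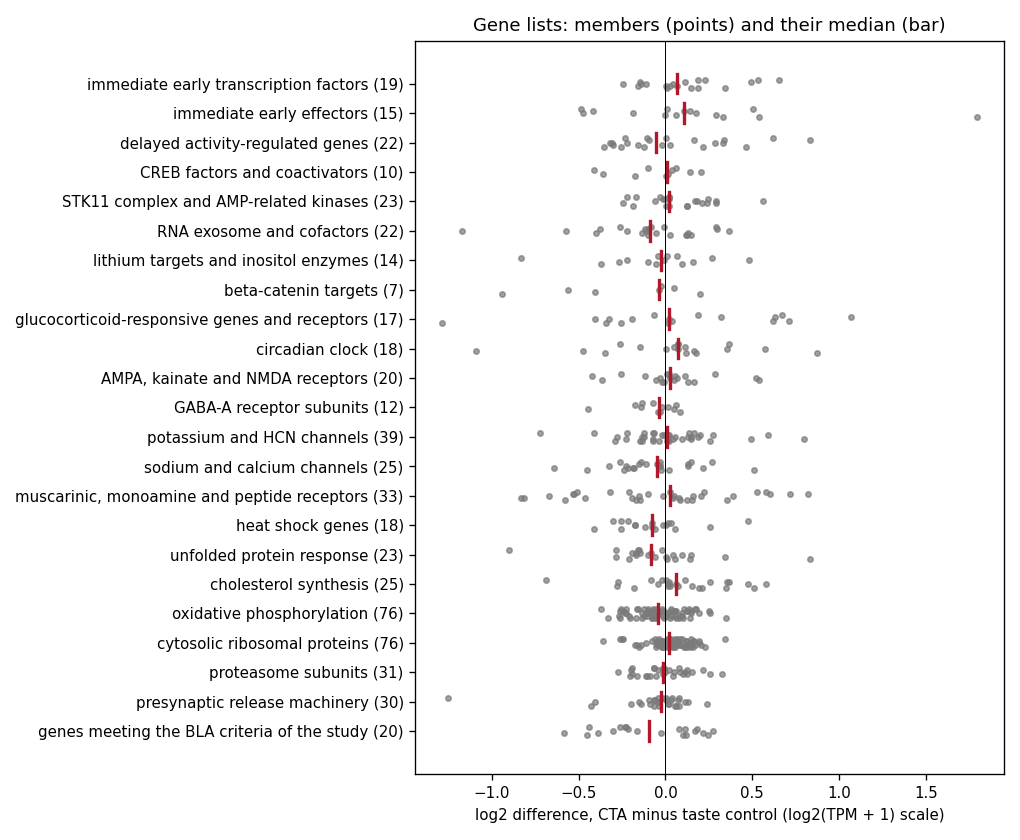
Each point is 1 tested entry of a gene list, and the x axis is its log2 difference, CTA minus taste control, on the log2(TPM + 1) scale. Red bars are the medians of the lists, which lie between -0.09 and 0.10, and the number of entries tested stands after each name.

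Markers of other cell types were read beside these groups. All 6 tested markers of the claustrum and endopiriform nucleus were higher after CTA (median log2 difference 0.21), and their summed level was 1447 to 1691 TPM in CTA libraries and 1229 to 1654 TPM in taste controls. *Synpr*, given above, belongs to them. *Lxn*, a carboxypeptidase inhibitor, had 206, 198, 246 and 177 TPM in the CTA libraries, against 155, 164, 140.2 and 188 TPM in the taste controls, and CTA 4 was below taste control 4. *Gng2*, a G protein subunit, averaged 402 ± 40.2 TPM after CTA and 345 ± 71.4 TPM in taste controls. *Nr4a2* is in this list and among the immediate early genes.  Of 9 markers of striatum and central amygdala, 6 were higher and 3 lower (log2 difference -1.10 to 0.74, median 0.46). *Penk*, the most abundant, averaged 54.2 ± 17.8 TPM after CTA and 50.6 ± 34.3 TPM in taste controls. *Pde10a*, the next, was among the lower ones, with 31.5 ± 4.38 TPM after CTA and 35.1 ± 9.21 TPM in taste controls. *Ppp1r1b* (DARPP-32), among the higher ones, had 45.4, 23.6, 39.5 and 31.4 TPM in the CTA libraries, against 25.4, 21.5, 24.4 and 23.1 TPM in the taste controls. The list summed to 161 to 215 TPM after CTA and 114 to 238 TPM in taste controls.

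Oligodendrocyte markers were lower after CTA in 10 of 11 tested entries, with a median log2 difference of -0.96. Their summed level was 194, 125, 135 and 169 TPM in the CTA libraries, against 190, 445, 127 and 453 TPM in the taste controls. Taste control 2 and taste control 4 were thus high, and the other 2 taste controls lay within the range of the CTA libraries. *Mbp*, the myelin basic protein, had 117, 78.2, 105 and 95.1 TPM in the CTA libraries, against 142, 207, 86.8 and 182 TPM in the taste controls. *Cnp*, an enzyme of myelin, had 7.26, 6.97, 2.32 and 14.6 TPM in the CTA libraries, against 6.13, 32.4, 4.75 and 45.7 TPM in the taste controls, with taste control 2 and taste control 4 above all other libraries. *Mobp* averaged 19.7 ± 5.88 TPM after CTA and 37.2 ± 20.4 TPM in taste controls, and *Olig1*, a transcription factor of the lineage, 1.11 ± 1.41 TPM after CTA and 6.12 ± 5.196 TPM in taste controls. Without taste control 4 the median of the list was -0.43, without taste control 2 it was -0.45, and without taste control 3 it was -1.53.

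Of 10 tested interneuron markers, 7 were higher and 3 lower (median log2 difference 0.68), and their summed level of 5083 to 7748 TPM after CTA and 4758 to 6418 TPM in taste controls was nearly all *Cck*, which projection neurons also express. *Npy*, a neuropeptide, had 53.6, 117, 212 and 322 TPM in the CTA libraries, against 42.8, 98.2, 71.04 and 33.9 TPM in the taste controls. CTA 2, CTA 3 and CTA 4 were above every taste control, and CTA 1 was below 2 of them (log2 difference 1.34 ± 0.48 SE, 95% interval 0.30 to 2.37). *Pvalb* had 21.8, 4.76, 81.02 and 2.05 TPM in the CTA libraries, against 22.8, 34.1, 56.5 and 25.9 TPM in the taste controls, and *Reln*, a secreted matrix protein, averaged 16.9 ± 2.91 TPM after CTA and 28.1 ± 11.8 TPM in taste controls. *Slc32a1*, the vesicular GABA transporter, was listed at 0 in 1 library of each group and reached 1.79, 0, 5.01 and 0.98 TPM in CTA libraries and 2.61, 0.03, 0 and 0.23 TPM in taste controls. Of 13 tested astrocyte markers, 5 were higher and 8 lower (median log2 difference -0.21), and they summed to 379 to 497 TPM after CTA and 375 to 706 TPM in taste controls. *Aldoc* averaged 68.9 ± 3.198 TPM after CTA and 95.4 ± 42.9 TPM in taste controls. *S100b* went the other way, with 41.9 ± 12.5 TPM after CTA and 34.1 ± 10.02 TPM in taste controls. Of 11 tested microglial markers, 4 were higher and 7 lower (median log2 difference -0.24). They summed to 39.0 to 71.2 TPM after CTA and 26.4 to 99.4 TPM in taste controls, and *Trem2*, a receptor of these cells, had 11.8, 9.74, 21.8 and 11.5 TPM in the CTA libraries, against 4.56, 11.4, 6.85 and 5.71 TPM in the taste controls. CTA 3 was highest, and taste control 2 lay among the other CTA libraries. *C1qa*, a complement gene of the same cells, was below every taste control in all 4 CTA libraries at a low level, with 0, 0.74, 0.08 and 1.05 TPM in the CTA libraries, against 1.53, 2.26, 1.06 and 1.41 TPM in the taste controls. Such a separation was seen in 1.19% of all entries, and here CTA 4 and taste control 3 were nearly equal. The part of these cell types in any difference above was not tested.

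**Figure D5:**
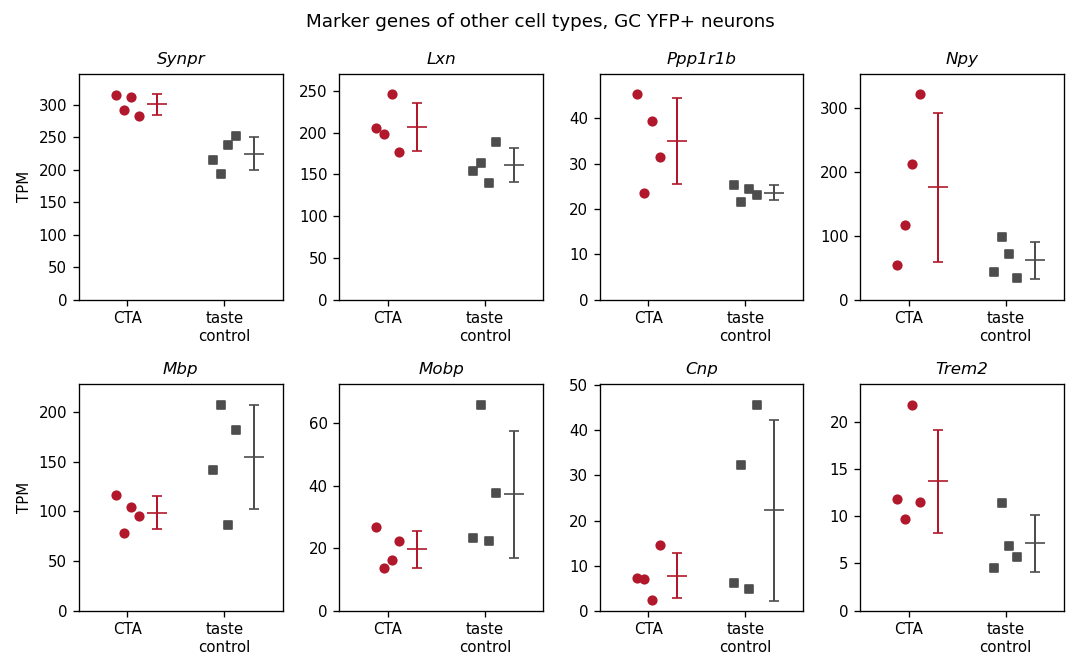
Level in TPM (y axis, from 0) of 8 marker genes in each library of GC YFP+ neurons: *Synpr* and *Lxn* (claustrum), *Ppp1r1b* (striatum), *Npy* (interneurons), *Mbp*, *Mobp* and *Cnp* (oligodendrocytes) and *Trem2* (microglia). Red circles are CTA libraries and grey squares taste controls, with the mean and SD (n = 4) beside them. *Mobp* and *Cnp* were highest in taste control 2 and taste control 4.

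The last question was whether the GC neurons shared the changes for which genes had been picked in the BLA. None of the 20 genes that the study selected in BLA neurons had an unadjusted p under 0.05 or separate groups in GC neurons, and 9 were higher after CTA and 11 were lower, with a median log2 difference of -0.09. *Tmem136*, a membrane protein gene, had the smallest p, with 5.05, 17.7, 15.1 and 9.78 TPM in the CTA libraries, against 22.8, 15.1, 15.9 and 14.3 TPM in the taste controls. CTA 1 and CTA 4 were below every taste control, and CTA 2 and CTA 3 lay among them. *Trpc1*, a cation channel, had 46.02, 41.1, 21.97 and 29.6 TPM in the CTA libraries, against 30.5, 27.1, 30.99 and 28.7 TPM in the taste controls, and CTA 1 and CTA 2 stood above all other libraries. *Magoh*, which marks spliced RNA as part of the exon junction complex, averaged 79.7 ± 15.4 TPM after CTA and 98.7 ± 44.9 TPM in taste controls, and *Nudt21*, a factor of 3′ end processing, 44.5 ± 14.5 TPM after CTA and 53.6 ± 15.5 TPM in taste controls. *Lrrn1*, a leucine-rich repeat membrane protein gene, was nearly level at 80.7 TPM in CTA against 76.3 TPM in taste control libraries. In BLA neurons *Fos* averaged 31.7 ± 8.77 TPM after CTA and 12.02 ± 5.69 TPM in taste controls, while GC means were 30.2 TPM in CTA against 26.95 TPM in taste control libraries. For *Stk11*, the BLA means were 17.03 ± 2.48 TPM after CTA and 34.1 ± 5.27 TPM in taste controls. The GC means of *Stk11* were 46.4 TPM in CTA against 37.7 TPM in taste control libraries. No test of the regions is given for these genes, since BLA values selected them. Over all 15191 entries tested across the 16 libraries, no region by training term had an adjusted p under 0.05 in limma (0%), and 601 had an unadjusted p under 0.05.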

How the data were processed

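RNA from YFP+ neurons, sorted by hand, was amplified with the NuGEN Ovation kit and sequenced as single-end reads. Per the labels and the methods, the authors aligned the reads with TopHat (version not given in the sources used here) to mm10 and deposited the uniquely mapped reads per gene as TPM values for each library. These values carry no counts, and the sequencing depth of each library is therefore unknown. The paper gives only a usual range of unique reads for its libraries. The authors' columns of means, fold changes and p-values were not used.

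Entries with a mean of at least 1 TPM over the 8 GC libraries were tested with limma 3.58.1 in R 4.3.3 (moderated test with a variance trend) on log2(TPM + 1), with Benjamini-Hochberg adjustment over all of them. Fold changes on this scale understate those of low genes. The region by training term was fitted over 16 libraries, treated as independent. Whether GC and BLA libraries came from the same animals is not given in the sources used here. Exact permutation tests of mean TPM were two-sided. Where libraries are not said to come from separate mice, p-values measure only the spread between libraries. Samples were grouped by their titles. The scripts were tested on simulated data.

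Members, gene lists and tests were chosen with earlier results of these data known. Named were *Exosc1*, *Fos* and *Stk11*, the genes the study selected in the BLA, the 12 higher and 12 lower entries of at least 30 TPM with the smallest p among those whose groups do not overlap, and members of the lists, for each the ones with the smallest p or the highest level, with others added after their values were seen. Alternatives were another pseudocount, filter, scaling and variance model, a replicate block, and leaving out each library. Positions are from GENCODE M21 (GRCm38).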

Additional observations from a re-analysis of the deposited data

Results flagged for a closer look

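In groups of 4 libraries, a library was called apart when its gap to the nearest other, divided by the range of the group, was above Dixon's 95% critical value. Of 234 groups looked at (each named gene in each training group), 16 had such a library (6.84%), 9 of CTA and 7 of taste control, where chance gives about 1 in 20. Without the 4 genes picked for single high libraries, 12 of 226 groups had one (5.31%).

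Among genes named for separate groups, the ratio was 0.877 for *Wipf3* after CTA (CTA 4 at 92.5 TPM, the others at 72.6 to 75.1), 0.943 for *3110040N11Rik* after CTA (CTA 1 at 64.8 TPM, the others at 35.3 to 37.0), 0.843 for *Ngef* after CTA (CTA 2 at 139 TPM, the others at 186 to 195) and 0.923 for *2310009A05Rik* after CTA (CTA 1 at 19.8 TPM, the others at 33.4 to 34.6).

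Among list members, it was 0.907 for *Nr4a2* after CTA (CTA 3 at 588 TPM, the others at 479 to 489), 0.863 for *Bpnt1* after CTA (CTA 4 at 32.0 TPM, the others at 50.6 to 53.5) and 0.830 for *Trem2* after CTA (CTA 3 at 21.8 TPM, the others at 9.74 to 11.8). In taste controls it was 0.917 for *Lmna* (taste control 1 at 27.9 TPM, the others at 39.0 to 40.03), 0.882 for *Errfi1* (taste control 2 at 18.6 TPM, the others at 23.7 to 24.3), 0.917 for *Mt2* (taste control 2 at 154 TPM, the others at 53.6 to 61.9), 0.923 for *Clock* (taste control 3 at 33.4 TPM, the others at 50.4 to 51.8) and 0.918 for *Ndufs7* (taste control 4 at 409 TPM, the others at 338 to 344).

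The single high libraries described for the 2-fold entries had ratios of 0.993 (*Osbp2* after CTA), 0.964 and 0.996 (*Tmem121* after CTA and in taste controls) and 0.976 (*Dync1li1* in taste controls). These genes were picked for those libraries.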

How the results depend on the processing

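With no filter on low values, 1 entry passed an adjusted p of 0.05 in limma (uc008kby.1, at 0 TPM after CTA and 0.09 to 0.11 TPM in taste controls, adjusted p = 0.00427), and the number lower at an unadjusted p under 0.05 was 437. Leaving out 1 library gave 0 to 1 adjusted calls, the 1 being *Gm19705* without CTA 2 (adjusted p = 0.0369). At a mean of at least 30 TPM, 80 entries were higher and 72 lower at an unadjusted p under 0.05. With all 16 libraries in the fit, 15191 entries with a mean of at least 1 TPM over them were tested. Of these, 95 were higher and 88 lower at that p, 183 in all, against 573 of 15278 in the main fit. At a mean of at least 10 TPM, groups did not overlap for 90 higher and 114 lower entries. The study's criteria were met by 0 entries where both group means had to reach 30 TPM, by 3 with limma's unadjusted p (*Exosc1*, *Glt25d1* and *Cdk9*), and by 0 to 3 when 1 library was left out. They were met by 0 entries without CTA 1, CTA 2, CTA 3, CTA 4 or taste control 3, by *Glt25d1* without taste control 1, by 3 including *Exosc1* and *Glt25d1* without taste control 2, and by *Npas2* and *Stard10* without taste control 4.

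The direction was kept by 115 of 117 named genes in those of 12 alternatives with all libraries in which they were fitted (78 genes at a mean of at least 30 TPM, 111 at 5 TPM, 117 in the others), and by 108 of 117 when each library was left out. Array quality weights gave log2 differences of -0.011 for *Egr1* and -0.066 for *Arc*. Leaving out 1 library gave -0.088 to 0.36 for *Fos*, -0.035 to 0.44 for *Stk11*, -0.085 to 0.23 for *Egr1*, -0.32 to 0.57 for *Arc*, -0.22 to 0.0014 for *Bdnf* and -0.60 to 0.013 for *Atf1*. For *Tmem121*, *Unc13a* and *Dos* the ranges were -2.38 to 0.62, -0.13 to 0.044 and -0.14 to 0.19. For *Exosc1* the range was -1.30 to -1.01, for *Npas2* 0.757 to 0.997. The smallest adjusted p of any named gene was 0.607 over all these fits (limma).

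Libraries of both groups share numbers, and deviations of same-numbered libraries correlated at 0.0418 to 0.126, too weakly in 2 of 4 pairs to treat the numbers as a pairing. CTA 1 and CTA 2 correlated best with taste control 1, and CTA 3 and CTA 4 with taste control 3. With the number as a replicate block, 753 entries had an unadjusted p under 0.05 and 0 an adjusted one. The values carry no counts, so that counting error could not be set apart from the spread between libraries.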
